A study of Mus musculus with 19 samples.

Results

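A set of 10 genes that mark brown adipocytes or serve their heat production were followed in mouse quadriceps, namely Ucp1, Cidea, Elovl3, Dio2, Otop1, Zic1, Pm20d1, Slc27a2, Acot11 and Cox8b. They were taken by name from a one-colour Agilent array, which carried 13 probes for these 10 genes among 30214 gene names. All 13 probes were read on each array separately, and 11 of them, covering 9 genes, had enough signal to enter the statistical test; Elovl3 and the dimmer of the Pm20d1 probes did not.
The study asked how muscle is altered in spinal and bulbar muscular atrophy, an inherited neuromuscular disease, and whether a high-fat diet modifies this. AR113Q mice are a knock-in model of that disease, on the same congenic C57Bl6J background as the wild-type controls (CTR), and the labels give all animals as male. From 40 days of age the animals ate either normal chow (NCD) or high-fat food (HFD), and quadriceps was taken at 180 days. The groups were CTR-NCD (n = 5 arrays), AR113Q-NCD (n = 5), CTR-HFD (n = 4) and AR113Q-HFD (n = 5). The knock-in allele is present in every tissue, so these arrays cannot tell what arises in the muscle fibers from what arises in nerve, fat or other cells. The labels do not say whether each array held RNA of a separate mouse, and p-values therefore measure the spread between arrays, which may be technical.

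Brown adipocytes burn fatty acids to make heat. Uncoupling protein 1, encoded by Ucp1, lets protons return across the inner mitochondrial membrane without ATP synthesis, and noradrenaline, cyclic AMP and thyroid hormone raise its transcription. Skeletal muscle makes heat by other routes, above all by futile calcium cycling at the sarcoplasmic reticulum pump, and small fat depots can lie between its fibers. In a whole-muscle extract, fewer cells of a type and less RNA per cell cannot be told apart.

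Values are log2 signals relative to the array's own 75th percentile, so a value of 0 is as bright as that percentile. A probe that the scanner software did not find well above background on an array has no reliable level there. A probe was called changed at a Benjamini-Hochberg adjusted p under 0.05 in limma, over 32026 probes, together with a fold of at least 1.5 or at most 0.6. All comparisons came from a single fit over the 19 arrays, and comparisons that use the same control arrays are not independent. All 11 fast-fiber and structural muscle markers were well above background on all 19 arrays. Of these, 9 were lower in AR113Q-NCD (median -0.33) and 8 in AR113Q-HFD (median -0.49), with 1 called lower on each diet. With no fold threshold, 8 passed on NCD and 9 on the HFD. With the fold threshold, the 1 call was lost with quantile normalization on both diets and with normexp on NCD. When each array was left out, the count on the HFD ran from 0, without CTR-HFD replicate 2 or AR113Q-HFD replicate 1 or 5, to 2, without CTR-HFD replicate 3 or AR113Q-HFD replicate 2. Their summed level, in units of the 75th percentile, ran from 3776 to 4585 for CTR and 3129 to 3730 for AR113Q on NCD, and from 3863 to 4809 and 2834 to 3411 on the HFD, without overlap. The part of muscle content in the genotype differences was not tested.

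Sequences are shown here for Ucp1, which had the widest range over the arrays, for the brighter Otop1 probe, whose genotype difference on NCD had the opposite sign to that of the other Otop1 probe, and for the promoters that held a searched motif. The probes are the 60-base oligonucleotides whose signal is reported, in mm9 coordinates from the scanner files. The Ucp1 probe lies at chr8:85821788-85821847 (+) and begins at base 1076 of the transcript, and the brighter Otop1 probe lies at chr5:38694026-38694085 (+) and begins at base 1719. Of the 3 forward reading frames of each probe, 1 is free of stop codons.
Ucp1 probe: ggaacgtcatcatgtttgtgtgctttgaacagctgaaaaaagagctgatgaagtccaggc
Otop1 brighter probe: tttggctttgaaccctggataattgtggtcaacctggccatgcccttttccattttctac
The promoter windows are the 250 bases before the transcript start in RefSeq on GRCm38.p6, a later build than that of the probes. They are Ucp1 at chr8:83290098-83290347 (+), Slc27a2 at chr2:126552774-126553023 (+) and Dio2 at chr12:90739039-90739288 (-). Capitals mark exact matches to 3 motifs searched on both strands, AGGTCA (the core letters bound by nuclear receptors such as the thyroid hormone and peroxisome proliferator-activated receptors, read as TGACCT on the other strand), TGACGTCA (the cyclic AMP response element) and TATAAA (the TATA box).
Ucp1 promoter: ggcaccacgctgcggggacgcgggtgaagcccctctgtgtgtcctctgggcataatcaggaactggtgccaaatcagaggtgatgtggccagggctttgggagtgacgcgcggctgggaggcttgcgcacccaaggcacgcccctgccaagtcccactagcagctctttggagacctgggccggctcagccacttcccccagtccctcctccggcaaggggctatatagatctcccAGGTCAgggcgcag
Slc27a2 promoter: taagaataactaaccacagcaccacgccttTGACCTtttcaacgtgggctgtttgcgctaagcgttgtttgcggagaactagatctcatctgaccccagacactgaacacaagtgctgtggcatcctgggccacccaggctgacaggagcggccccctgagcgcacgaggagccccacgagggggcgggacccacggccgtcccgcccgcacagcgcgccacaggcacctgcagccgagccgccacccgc
Dio2 promoter: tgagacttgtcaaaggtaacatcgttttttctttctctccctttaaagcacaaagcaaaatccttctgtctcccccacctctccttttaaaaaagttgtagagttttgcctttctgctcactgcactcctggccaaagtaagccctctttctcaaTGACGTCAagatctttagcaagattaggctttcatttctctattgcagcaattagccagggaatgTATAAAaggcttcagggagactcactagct
AGGTCA occurred in 14.0% of 32851 mouse promoter windows of this length, TATAAA in 12.4% and TGACGTCA in 1.55%. Promoter entries matched 7 of the 10 genes, and the windows of Otop1, Zic1, Acot11 and Cox8b held none of these letters; Elovl3, Pm20d1 and Cidea had no entry in the table used. A match is a description of the letters and not evidence of a bound site.

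Before any group was compared, 1 array stood apart for these genes. AR113Q-NCD replicate 2 gave the highest of the 19 values for 7 of the 13 probes, and for 5 of them it exceeded every other array by at least 1 log2 unit. No other array did so for any of the 13 probes. For Elovl3 the other arrays were all at background, so its gap has no exact size. The gaps to the next array were 4.06 for Ucp1, 2.13 for Cidea, 1.73 for the dimmer Otop1 probe and 1.35 for Slc27a2. Over the whole array, 53 of 35447 probes exceeded all other arrays by that margin on AR113Q-NCD replicate 2, against a median of 58 and a range of 12 to 278 over the 19 arrays. The NCD genotype difference of each tested probe is therefore given with and without this array.

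**Figure D1:**
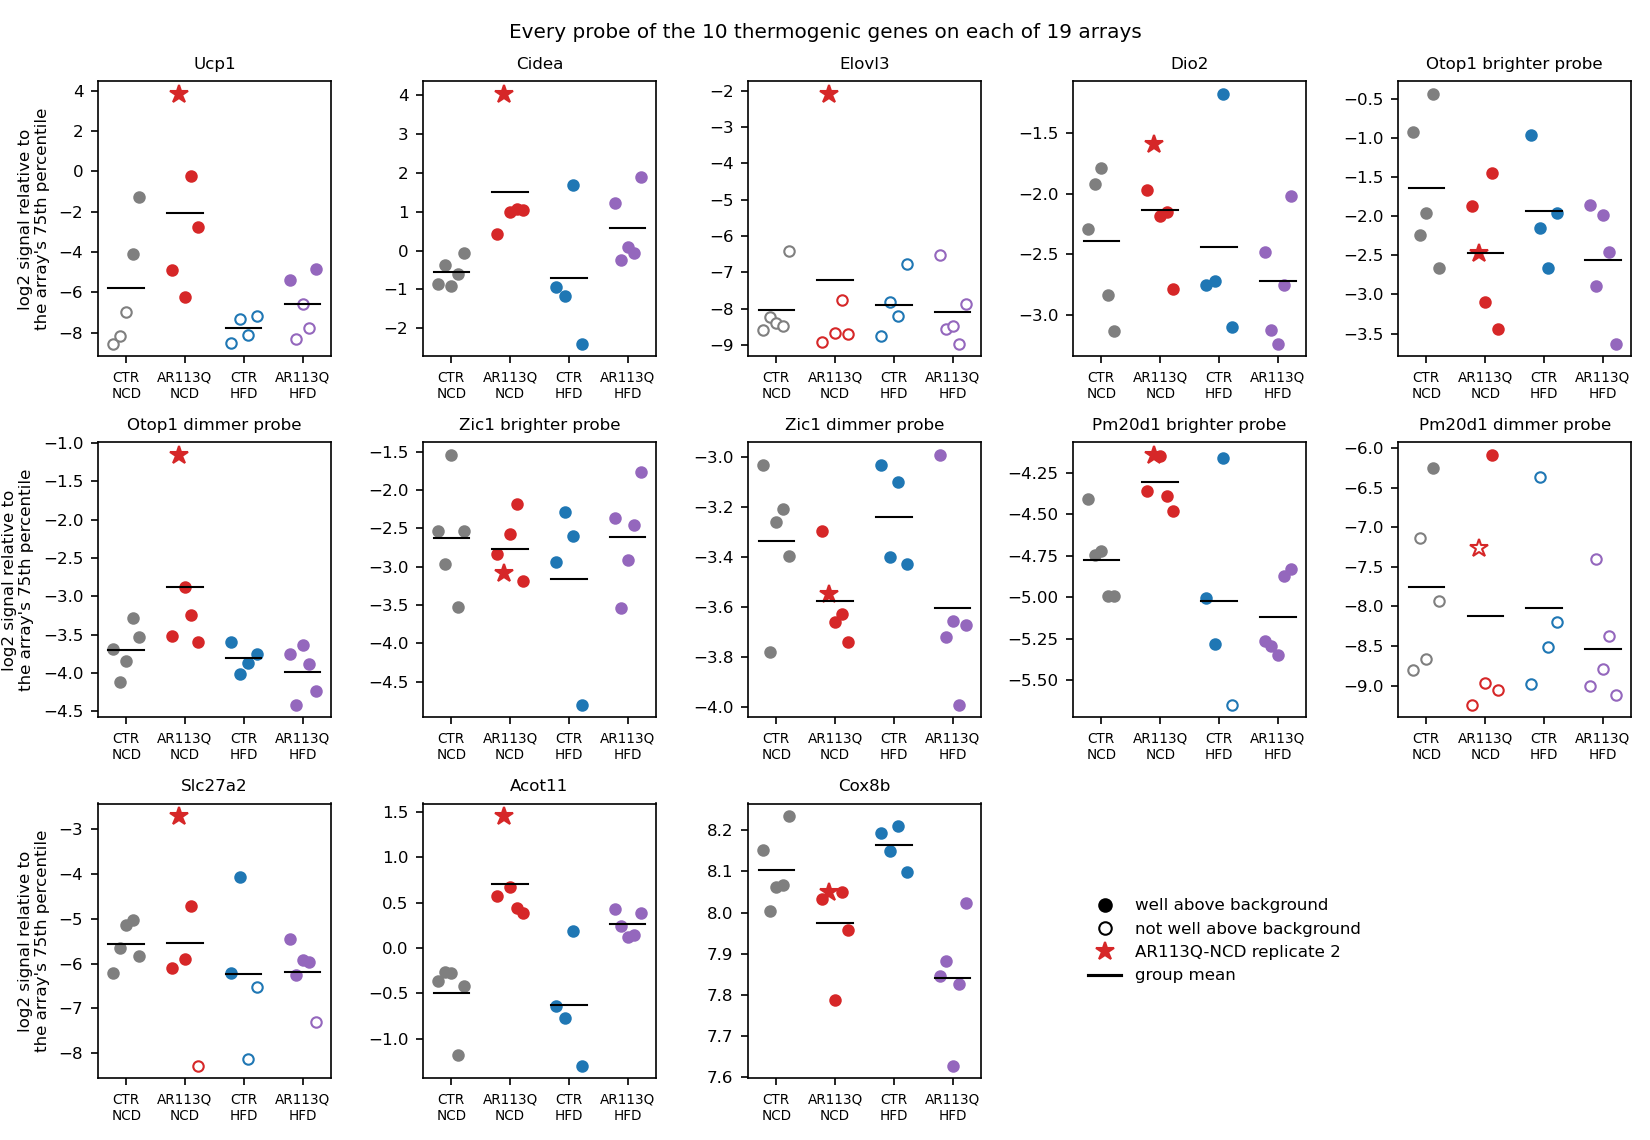
Log2 signal of each member probe relative to the array's 75th percentile (vertical axes) on each of the 19 arrays in the 4 groups. Open points were not well above background, horizontal bars are group means and the star is AR113Q-NCD replicate 2. It is the top point for Ucp1 (3.85), Cidea (4.03) and Elovl3 (-2.09).

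Ucp1, the uncoupling protein itself, was not well above background on 10 of the 19 arrays and exceeded the 75th percentile on a single array. In CTR-NCD the 5 arrays read -8.56, -8.15, -6.96, -4.11 and -1.25, of which only the last 2 were well above background. In AR113Q-NCD all 5 were well above background, at -4.91, 3.85, -6.22, -0.21 and -2.78. These groups overlapped, and the brightest array, replicate 2, reached 14.4 times its 75th percentile.
In CTR-HFD the 4 arrays read -8.51, -7.34, -8.10 and -7.16, none well above background. In AR113Q-HFD they read -5.39, -8.33, -6.57, -7.79 and -4.85, with the first and the last well above background. The mean of AR113Q-NCD lay 3.75 log2 units above that of CTR-NCD (SE 1.64, adjusted p = 0.140 by limma; exact permutation p = 0.135), and AR113Q read higher on 4 of the 5 slides, on 3 of which the CTR array was not well above background. Without AR113Q-NCD replicate 2 the difference was 2.27 (adjusted p = 0.350), and without CTR-NCD replicate 5 it was 4.89 and passed the threshold (adjusted p = 0.0494). With normexp background correction it was 0.94 (adjusted p = 0.468). The means include arrays that were not well above background, so the fold itself is uncertain. On the HFD the mean signals were -7.78 in CTR and -6.59 in AR113Q (adjusted p = 0.716), and no fold is given because the CTR-HFD level is only an upper limit that lies above the AR113Q-HFD mean.

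Cidea, a lipid-droplet protein that promotes lipid storage in large droplets and is abundant in brown fat, was measured well above background on all 19 arrays. CTR-NCD arrays read -0.87, -0.38, -0.92, -0.60 and -0.05. AR113Q-NCD arrays read 0.42, 4.03, 0.99, 1.08 and 1.06. Every AR113Q-NCD array lay above every CTR-NCD array, and AR113Q was higher on 5 of 5 slides by 1.11 to 4.41 log2 units.
The difference was 2.08 (SE 0.71, fold 4.23), with an adjusted p of 0.0542 that narrowly missed the threshold (limma; exact permutation p = 0.00794, the smallest that 5 against 5 arrays allow). It passed the threshold in 11 of 36 alternative settings, 1 of which used the unadjusted p. Among them were quantile normalization (adjusted p = 0.0483), slide as a random block (0.0401) and the fits without AR113Q-NCD replicate 1 (0.0451) or CTR-HFD replicate 3 (0.0201) or 4 (0.0407). It did not pass with slide as a fixed block (0.0744) or with the replicate block (0.0639). Without AR113Q-NCD replicate 2 the groups still did not overlap, at a difference of 1.45 (adjusted p = 0.141; exact permutation p = 0.00794).
On the HFD the separation was absent. CTR-HFD arrays read -0.94, -1.18, 1.70 and -2.40, and AR113Q-HFD arrays read 1.22, -0.24, 0.09, -0.07 and 1.90. The groups overlapped because CTR-HFD replicate 3 was the second highest of the 9 arrays. The difference was 1.28 (SE 0.76, adjusted p = 0.291 by limma). Without CTR-HFD replicate 3 it was 2.09 (adjusted p = 0.0421), and without CTR-HFD replicate 4 it was 0.72 (adjusted p = 0.596).

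Elovl3, an elongase of very long fatty acids that is strongly induced in cold-stimulated brown fat, was detected on 1 array. AR113Q-NCD replicate 2 read -2.09, while the other 18 arrays lay between -8.97 and -6.42 and were not well above background. The probe therefore did not enter the limma test. No fold and no test of the groups is given, since no CTR-NCD array was well above background.

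Slc27a2, a fatty acid transporter and very-long-chain acyl-CoA synthetase best known from liver and kidney, was dim. In CTR-NCD it read -6.20, -5.65, -5.13, -5.03 and -5.83. In AR113Q-NCD it read -6.10, -2.71, -5.89, -4.72 and -8.28, replicate 2 being the highest of all arrays and replicate 5, not well above background, the lowest.
On the HFD, 2 of the 4 CTR arrays and 1 of the 5 AR113Q arrays were not well above background. The genotype difference was 0.03 on NCD (SE 0.82, adjusted p = 0.989 by limma) and -0.68 without AR113Q-NCD replicate 2. On the HFD it was 0.05 (SE 0.87, adjusted p = 0.978).

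Acot11, a thioesterase that cleaves long-chain acyl-CoA and is cold-induced in brown fat, was the 1 member called in either genotype comparison. CTR-NCD arrays read -0.36, -0.26, -0.27, -1.18 and -0.42. AR113Q-NCD arrays read 0.58, 1.45, 0.68, 0.44 and 0.38. The groups did not overlap, the highest CTR-NCD value being -0.26.
Acot11 rose by 1.20 log2 units in AR113Q-NCD (SE 0.25, fold 2.31, adjusted p = 0.00278 by limma; exact permutation p = 0.00794), and AR113Q was higher on 5 of 5 slides by 0.81 to 1.71. Without AR113Q-NCD replicate 2 the rise was 1.02 (adjusted p = 0.00773). The call held in each of the 36 alternative settings, with adjusted p from 0.000738 to 0.0346.
On the HFD, CTR arrays read -0.64, -0.77, 0.19 and -1.30, and AR113Q arrays read 0.43, 0.24, 0.12, 0.15 and 0.38. The AR113Q-HFD arrays lay close together, and CTR-HFD replicate 3 fell among them while the other CTR-HFD arrays lay below. Acot11 was 0.90 higher in AR113Q-HFD (SE 0.27, fold 1.86, adjusted p = 0.0262 by limma; exact permutation p = 0.0238), higher on 3 of 4 slides. This call rested on single arrays. It was lost without CTR-HFD replicate 1, 2 or 4 or AR113Q-HFD replicate 1 or 5, with adjusted p from 0.0538 to 0.104 and differences from 0.68 to 0.89. With all arrays kept, it was also lost with normexp (0.80, adjusted p = 0.0953) and with only the groups compared (adjusted p = 0.0596).

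Pm20d1, a secreted enzyme that joins fatty acids to amino acids and yields lipids with uncoupling activity, was dim at its brighter probe. CTR-NCD arrays read -4.41, -4.75, -4.72, -4.99 and -4.99. AR113Q-NCD arrays read -4.36, -4.14, -4.15, -4.39 and -4.48, tighter than the controls and higher on 5 of 5 slides, with a small overlap.
The difference was 0.47 (SE 0.21, adjusted p = 0.149 by limma, exact permutation p = 0.0159). With normexp background correction the difference turned to -0.87, where the median over all probes was -0.55. Without AR113Q-NCD replicate 2 it was 0.43 (adjusted p = 0.259; exact permutation p = 0.0238). On the HFD, CTR arrays read -5.00, -5.28, -4.16 and -5.65, the last not well above background, and AR113Q arrays read -5.26, -5.30, -5.34, -4.87 and -4.83. These overlapped, with a difference of -0.10 (SE 0.22, adjusted p = 0.829). The dimmer probe was well above background only on CTR-NCD replicate 4 and AR113Q-NCD replicate 4.

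Dio2, the deiodinase that makes active thyroid hormone inside the cell, was well above background on all 19 arrays. CTR-NCD arrays read -2.29, -1.92, -1.79, -2.83 and -3.13, and AR113Q-NCD arrays read -1.97, -1.59, -2.18, -2.15 and -2.78. CTR-HFD arrays read -2.75, -2.72, -1.18 and -3.10, and AR113Q-HFD arrays read -2.48, -3.12, -3.24, -2.75 and -2.02. All 4 groups overlapped, CTR-HFD replicate 3 being the highest. The genotype difference was 0.26 on NCD (SE 0.36, adjusted p = 0.710 by limma; 0.12 without AR113Q-NCD replicate 2) and -0.29 on the HFD (SE 0.38, adjusted p = 0.683).

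Zic1, a zinc finger transcription factor that marks the lineage of classical brown fat, gave 2 probes above background on all 19 arrays. The brighter probe ranged from -3.52 to -1.54 over the CTR-NCD arrays and from -3.19 to -2.18 over the AR113Q-NCD arrays. On the HFD it ranged from -4.80 to -2.29 for CTR and from -3.54 to -1.77 for AR113Q. The dimmer probe ranged from -3.99 to -2.99 over the 19 arrays, and the groups overlapped at both probes. Genotype differences were -0.15 and -0.24 on NCD (adjusted p = 0.873 and 0.392 by limma) and 0.55 and -0.37 on the HFD (0.504 and 0.182), for the brighter and the dimmer probe. Those on NCD were -0.08 and -0.25 when AR113Q-NCD replicate 2 was left out.

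Otop1, which encodes a proton channel expressed in brown fat, gave 2 probes whose genotype differences on NCD had opposite signs as reported. Both were negative with normexp background correction, where the median over all probes was -0.55. At the brighter probe, shown above, CTR-NCD arrays read -0.92, -2.24, -1.96, -0.43 and -2.66. AR113Q-NCD arrays read -1.86, -2.47, -3.10, -1.45 and -3.44. The groups overlapped, yet AR113Q was lower on 5 of 5 slides.
The brighter probe differed by -0.82 (SE 0.49, adjusted p = 0.297 by limma; exact permutation p = 0.190). With the replicate number as a block, the same difference had an SE of 0.27 and passed the threshold (adjusted p = 0.0457), whereas with slide as a fixed or a random block it did not (adjusted p = 0.0565 and 0.137). The number equals the slide on all arrays but CTR-HFD replicate 4. The difference was again -0.82 without AR113Q-NCD replicate 2 (adjusted p = 0.378). On the HFD it was -0.63 (SE 0.52, adjusted p = 0.471).
The dimmer probe, which begins at base 3073 of the transcript, read -3.69, -4.12, -3.84, -3.29 and -3.53 in CTR-NCD. In AR113Q-NCD it read -3.51, -1.16, -2.88, -3.24 and -3.60. The groups overlapped and replicate 2 stood 1.73 above all other arrays. The difference was 0.82 (SE 0.35, adjusted p = 0.126), and without that array it was 0.39 (adjusted p = 0.225). On the HFD it ranged from -4.02 to -3.59 for CTR and from -4.41 to -3.63 for AR113Q, a difference of -0.18 (adjusted p = 0.809). Which probe follows the full transcript was not tested.

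Cox8b, the heart and muscle form of a small cytochrome c oxidase subunit and also a brown fat marker, was among the bright signals on every array. CTR-NCD arrays read 8.15, 8.004, 8.06, 8.07 and 8.23, and AR113Q-NCD arrays read 8.03, 8.05, 7.79, 8.05 and 7.96. CTR-HFD arrays read 8.19, 8.15, 8.21 and 8.10, and AR113Q-HFD arrays read 7.85, 7.88, 7.63, 7.83 and 8.02. On the HFD every AR113Q array lay below every CTR array, and on NCD the groups overlapped.
The HFD difference was -0.32 (SE 0.08, fold 0.80, adjusted p = 0.00824 by limma; exact permutation p = 0.0159), too small in fold to be called. Its direction depended on the scaling, at 0.06 with quantile normalization and 0.09 in the authors' normalized values. On NCD the difference was -0.13 (SE 0.07, adjusted p = 0.286), and it too changed sign, to 0.20 and 0.18. It was -0.15 when AR113Q-NCD replicate 2 was left out (adjusted p = 0.274).

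**Figure D2:**
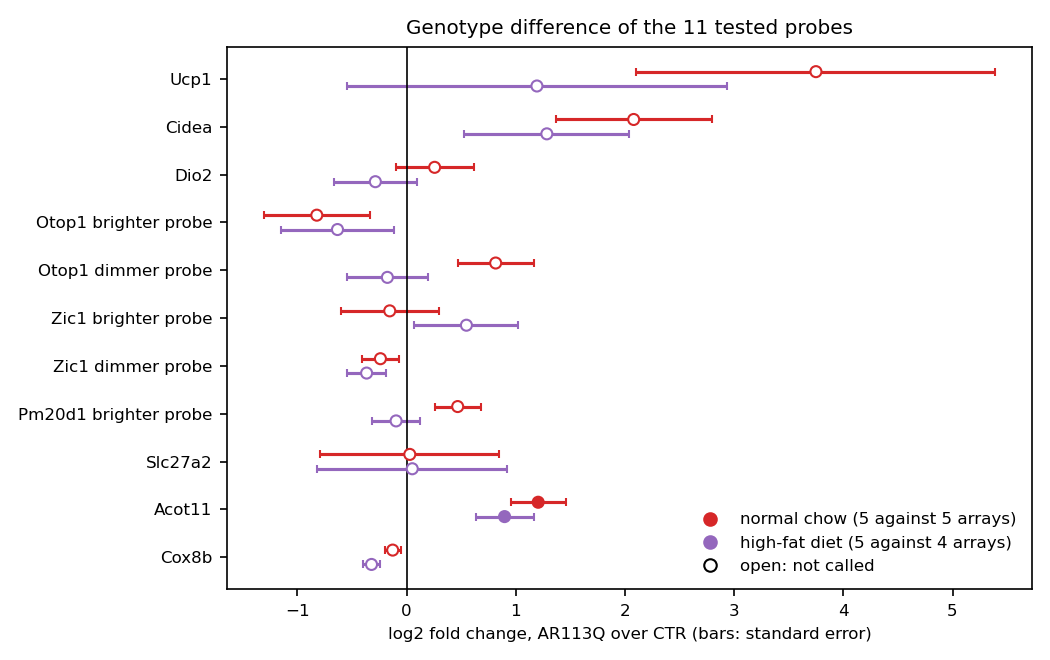
Log2 fold change (AR113Q minus CTR, horizontal axis) of the 11 tested probes on each diet, all 19 arrays included, with bars of 1 SE from the limma fit and filled points where the probe was called. Acot11 is filled on both diets (1.20 and 0.90), and Ucp1 has the widest bars (3.75 with an SE of 1.64 on NCD).

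Counted over the members, 1 of the 11 tested probes was called in AR113Q-NCD against CTR-NCD, where 4.33% of all tested probes were called. The count was again 1, Acot11, without AR113Q-NCD replicate 2. Of the differences, 7 were above 0 and 4 below, with a median of 0.26, against a median of -0.05 over all probes. Without that array the median was 0.12, the value of Dio2, and Slc27a2 turned to -0.68. The arrays did not overlap for 2 of the 11, Cidea and Acot11, where 15.6% of all tested probes did not overlap. In AR113Q-HFD against CTR-HFD again 1 of 11 was called, Acot11, against 4.75% of all probes, and 1 of 11 did not overlap, Cox8b, against 15.7%. The median there was -0.10, against -0.07 over all probes. With 11 probes these shares rest on 1 or 2 genes.

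The diet was compared within each genotype. In CTR mice, none of the 11 probes was called, as for all probes (0%), and by limma none of the 11 had an unadjusted p under 0.05, where 8.66% of all probes did. For none of the 11 were the 2 groups of arrays apart, against 2.73% of all probes. Of the 11 differences, 9 were below 0, with a median of -0.14, against 0.0097 over all probes. Ucp1 had 2 of 5 arrays well above background in CTR-NCD and 0 of 4 in CTR-HFD, so no fold is given (limma adjusted p = 0.826).
In AR113Q mice, none of the 11 was called either, where 0.025% of all probes, 8 in number, were. Of the 11 differences, 10 were below 0, with a median of -0.59, against -0.0026 over all probes. Without AR113Q-NCD replicate 2 the median was -0.25, the value of Acot11, and Slc27a2 turned to 0.070. An unadjusted p under 0.05 was found for 3 probes by limma, all lower on the HFD, where 6.73% of all probes had one. Pm20d1 differed by -0.81 (SE 0.21, adjusted p = 0.372; exact permutation p = 0.00794), and the dimmer Otop1 probe by -1.10 (SE 0.35, adjusted p = 0.517; exact permutation p = 0.00794). For both, every AR113Q-HFD array lay below every AR113Q-NCD array, a separation seen in 2.04% of all probes. Without AR113Q-NCD replicate 2 Pm20d1 still differed by 0.77 (NCD minus HFD, exact permutation p = 0.00794) and Otop1 by 0.67 (exact permutation p = 0.0159). With normexp Pm20d1 differed by -0.45 (HFD minus NCD). In the authors' values, which may average the probes of a gene, Otop1 differed by -0.53 (HFD minus NCD).
The mean Ucp1 signal differed by -4.53 in AR113Q-HFD against AR113Q-NCD (SE 1.64, adjusted p = 0.592 by limma; exact permutation p = 0.0397), and by -2.24 with normexp. Without AR113Q-NCD replicate 2 the difference was 3.06 (NCD minus HFD, exact permutation p = 0.0635). Because 3 of the 5 AR113Q-HFD arrays were not well above background, the size of the Ucp1 difference is uncertain and its p-values rest partly on unmeasured levels. The interaction of genotype and diet was called for none of the 11 probes and for none of all probes (0%). Its lowest unadjusted p was 0.0665, for the dimmer Otop1 probe, so no member's genotype difference was shown to depend on the diet. All 12 slow-fiber genes were also lower on the HFD, with a median of -0.92 in CTR and -2.10 in AR113Q, none called. In AR113Q, 15 of 18 white and shared adipocyte genes (median -0.30) and 6 of 6 endothelial markers (median -0.26) were lower too. So were 20 of 25 regulators of thermogenesis (-0.07) and 17 of 22 other brown adipocyte genes (-0.14). Calcium and creatine cycling genes were lower for 13 of 17 (-0.11). Schwann cell and macrophage markers were lower for 5 of 6 each, against 12488 of 24741 genes in all. In CTR the white and shared adipocyte genes were lower for 11 of 18 (-0.06) and the endothelial markers for 5 of 6 (-0.16). The other lists gave 11 of 25, 12 of 22, 9 of 17, 3 of 6 and 6 of 6 lower there, in the same order. No gene of these lists was called in either genotype. Fibroblast markers went the other way in AR113Q, with 4 of 6 higher (median 0.04), as did denervation genes, with 8 of 10 higher (median 0.23). The part of fiber or cell content in the diet differences was not tested.

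**Figure D3:**
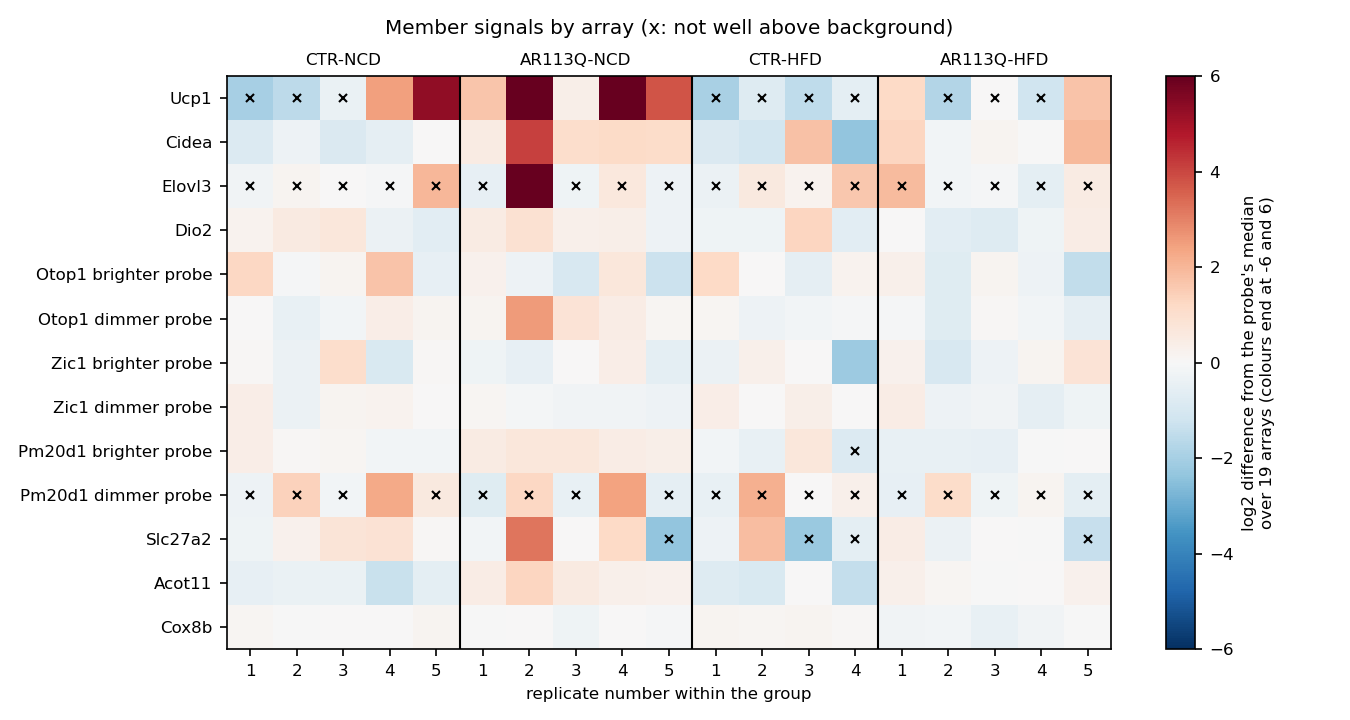
Each member probe (rows) on each of the 19 arrays (columns, by group), coloured by its log2 signal minus that probe's median over the 19 arrays, with the colour scale ending at -6 and 6 and a cross where the probe was not well above background. AR113Q-NCD replicate 2 is the highest array for 7 of the 13 probes and the only uncrossed one for Elovl3.

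Other genes of the thermogenic program were read from lists. Of 25 tested transcriptional and signalling regulators of thermogenesis, 2 rose and 1 fell in AR113Q-NCD, with a median difference of 0.10, against -0.06 over all 24741 genes, of which 559 rose and 502 fell. Ppara, the fatty acid-sensing nuclear receptor, rose by 1.15 (SE 0.37, adjusted p = 0.0428 by limma), and Klf11 rose by 0.64 (SE 0.16, adjusted p = 0.0111). Rxrg, the retinoid X receptor partner common in muscle, fell by 0.98 (SE 0.17, adjusted p = 0.000655). The 3 calls became 1 when AR113Q-NCD replicate 4 was left out, and none with normexp.
On the HFD 1 rose and 2 fell, with a median of -0.08, and over all 24741 genes 688 rose and 474 fell, with a median of -0.08 as well. Bmp7, a growth factor that commits cells to the brown lineage, rose by 0.71 (adjusted p = 0.0421), while Rxrg fell by 0.93 (adjusted p = 0.00166) and the orphan receptor Nr4a1 by 0.79 (adjusted p = 0.0167). These 3 calls became 1 with normexp, and also when CTR-HFD replicate 2 or AR113Q-HFD replicate 3 was left out. Ppargc1a, the coactivator of mitochondrial biogenesis, differed by 0.21 on NCD and 0.57 on the HFD and did not pass (adjusted p = 0.660 and 0.170). Fgf21 was not well above background on any array.

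Of 22 tested genes from other descriptions of brown adipocytes, 2 rose and none fell on NCD (median 0.27), and 1 rose on the HFD (median -0.05). These counts were unstable. When each array was left out they ran from 1 to 4 on NCD, with 1 gene called without AR113Q-NCD replicate 2, 3 or 4 or CTR-NCD replicate 2 or 5 and 4 without CTR-NCD replicate 1. On the HFD they ran from 0, without CTR-HFD replicate 1, 2 or 4 or AR113Q-HFD replicate 5, to 3, without CTR-HFD replicate 3, and both counts were 0 with normexp. Gyk, glycerol kinase, rose by 0.88 (adjusted p = 0.0384), and P2rx5, an ATP-gated channel, rose by 0.71 on NCD and 0.69 on the HFD (adjusted p = 0.0101 and 0.0169). Hspb7 and Plin5, which muscle itself expresses, were 1.14 and 1.06 higher on NCD without passing (adjusted p = 0.138 and 0.0577).
Of 10 beige adipocyte genes, 1 rose on each diet. It was Klhl13, a ubiquitin ligase adaptor, at 0.94 and 1.40 (adjusted p = 0.00129 and 6.56e-05).

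Of 17 tested genes of calcium and creatine cycling, the heat-producing routes of muscle, 2 rose and 2 fell on NCD, and 1 rose and 1 fell on the HFD. Sln, sarcolipin, which uncouples the calcium pump so that it releases heat, rose by 3.40 on NCD (SE 0.63, adjusted p = 0.00117) and by 3.74 on the HFD (SE 0.67, adjusted p = 0.000856). Atp2a1, the fast-fiber calcium pump, fell by 0.83 on both diets (adjusted p = 9.04e-06 and 1.74e-05). On NCD Slc25a5, an ADP/ATP carrier, rose by 0.68 (adjusted p = 0.0141) and 2310015B20Rik fell by 0.94 (adjusted p = 0.000726). The NCD count of 4 was 1 with normexp, and the HFD count of 2 was 1 with quantile normalization and 5 when CTR-HFD replicate 3 was left out.
Ucp2 and Ucp3, the relatives of Ucp1, did not pass on either diet, and their NCD differences were 0.23 and -0.21 (adjusted p = 0.450 and 0.442). Of 8 tested genes of thyroid hormone action, Thrsp, a lipogenic target of the hormone, rose by 0.95 on NCD (adjusted p = 0.00603) and none was called on the HFD, where 1 was in 9 of 36 settings, among them quantile normalization and leaving out AR113Q-NCD replicate 2 or AR113Q-HFD replicate 4.

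Of 32 tested genes from the families of the members, 3 rose and 1 fell on NCD and 2 rose on the HFD. Elovl6, the elongase of long-chain saturated fatty acids, read -2.06 ± 0.64 (SD) in CTR-NCD and -0.06 ± 0.96 in AR113Q-NCD (n = 5 each), a rise of 1.995 (SE 0.37, adjusted p = 0.00112). It read -2.95 ± 0.21 in AR113Q-HFD (n = 5), a fall of 2.88 from AR113Q-NCD (SE 0.37, adjusted p = 0.00949). This diet call was lost in 5 of 36 settings, namely normexp, only the groups compared, and leaving out AR113Q-NCD replicate 5 or AR113Q-HFD replicate 2 or 4. Acot9, a mitochondrial thioesterase, rose by 0.62 and 0.80 on the 2 diets (adjusted p = 5.57e-05 and 1.19e-05). Acot10, its near-identical copy, rose by 0.68 and 0.88, and the array may not separate them. Slc27a3 fell by 0.94 on NCD (adjusted p = 0.000378).

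Markers of cells other than muscle fibers were read on the same arrays. Of 18 white or shared adipocyte genes, all well above background on all 19 arrays, none was called on either diet, with medians of 0.21 and -0.12, although 1 was called on the HFD without CTR-HFD replicate 3. Their summed level, in units of the array's 75th percentile, ran from 85.1 to 232 for CTR and 103 to 167 for AR113Q on NCD. On the HFD it ran from 78.1 to 158 for CTR and 67.1 to 217 for AR113Q, so all these ranges overlapped. On AR113Q-NCD replicate 2 it was 122, which ranked 10 of 19, and the single genes ranked from 2 (Pparg) to 19 (Lep). None of those 18 genes was highest on that array, nor any of the 10 beige genes, against 1 of 26 thermogenic regulators, 8 of 23 other brown adipocyte genes (Gyk, Kcnk3, Letmd1, Hspb7, Ntrk3, S100b, Acsl5 and Slc36a2) and 876 of 24741 genes in all, or 3.54%. Of 12 slow-fiber genes, 3 were highest on that array and for 9 it was among the 3 highest arrays, and their summed level there ranked 3 of 19. Of the other lists, thyroid hormone genes (30.2) and member families (191) ranked 1 of 19 there by summed level. Fibroblast markers (129) ranked 19 of 19. The part of slow-fiber or fibroblast content in the signals of that array was not tested.
Red blood cell, Schwann cell, macrophage, endothelial and fibroblast markers gave no call on either diet. The 5 red blood cell markers gave 1 on NCD without AR113Q-NCD replicate 4 and 1 on the HFD without CTR-HFD replicate 3. Of 10 denervation genes, 5 rose on NCD and 6 on the HFD, among them Chrna1, a subunit of the acetylcholine receptor, by 1.51 and 1.99 (adjusted p = 6.17e-06 and 1.2e-06). With normexp the count was 3 on each diet.

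Slow-fiber genes were measured because slow and fast fibers differ in fat metabolism. All 12 were higher in AR113Q-NCD, with a median of 2.01, although only Casq2, cardiac calsequestrin, passed (2.01, SE 0.44, adjusted p = 0.00414). Myh7, the slow myosin heavy chain, differed by 2.55 (SE 1.51, adjusted p = 0.296). On the HFD 10 of 12 were higher in AR113Q, with a median of 0.94 and 1 called. The summed slow-fiber level was 467, 681, 520, 173 and 217 in CTR-NCD and 671, 802, 1007, 674 and 588 in AR113Q-NCD. It was 228, 203, 957 and 128 in CTR-HFD and 403, 221, 132, 367 and 546 in AR113Q-HFD.
CTR-HFD replicate 3, the array with the summed level of 957, had the highest Cidea, Acot11 and Dio2 of its group, and replicate 4, with 128, had the lowest. AR113Q-HFD replicate 3, with 132, read 0.12 for Acot11, and CTR-NCD replicate 2, with 681, read -0.26. The part of slow-fiber content in the Cidea and Acot11 differences was not tested.

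**Figure D4:**
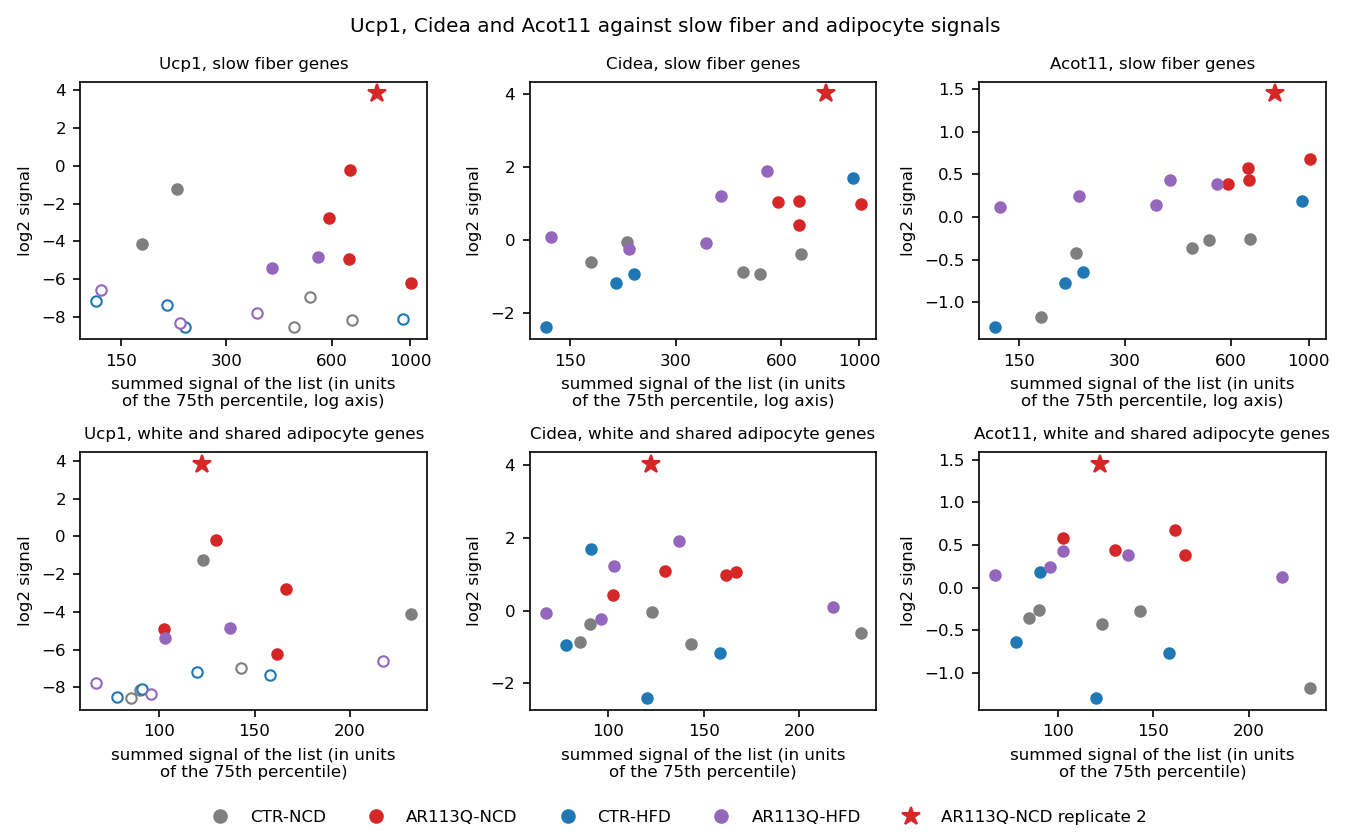
Log2 signal of Ucp1, Cidea and Acot11 on each array (vertical axes) against the summed level of the slow-fiber genes (upper row, log axis) or the white and shared adipocyte genes (lower row, linear axis), in units of the array's 75th percentile. Open points were not well above background and the star is AR113Q-NCD replicate 2; CTR-HFD replicate 3 has a slow-fiber sum of 957 and the highest Cidea (1.70) of its group.

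The genes most like each member were found from the deviations of each array from its group mean, over 19 arrays, and are given as a description. Genes like Cidea included Agpat2 (r = 0.87, rho = 0.68), which acylates lysophosphatidic acid in adipocytes, and Rad9b (r = 0.85). Pm20d1 was most like Tango2 (r = 0.95), Acadm (r = 0.94), the medium-chain acyl-CoA dehydrogenase, and Dusp18 (r = 0.93). Cox8b was most like 2010107E04Rik (r = 0.93), ENSMUST00000081864 (r = 0.92) and Ndufs6 (r = 0.90), a subunit of respiratory complex I.
Dio2 was most like TC1682680 (r = 0.95), Pdlim1 (r = 0.94) and F2r (r = 0.94), Otop1 like ENSMUST00000099093, Banf2 and Ninj2 (r = 0.97 for each) and Acot11 like NAP093812-001 (r = 0.93), Znrf1 (r = 0.91) and the malate dehydrogenase Mdh1 (r = 0.89). Zic1 was most like Zfp385b (r = 0.89), Slc27a2 like A330033J07Rik (r = 0.83) and Ucp1 like 4930465K12Rik (r = 0.84, or 0.75 without the 2 arrays farthest from the median).
Among the members, Dio2 and Pm20d1 gave r = 0.80 with and without AR113Q-NCD replicate 2, and Cidea and Acot11 gave 0.80, which was 0.73 without it. Ucp1 and Cidea gave r = 0.54, which was 0.32 without that array. These values share the scaling of each array, slide effects included.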

How the data were processed

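Total RNA of quadriceps was extracted with Trizol, purified on RNeasy MinElute columns, labelled with Cy3 and hybridized to Agilent Mouse GE 4x44K slides, 5 slides in all. The deposited scanner files, made by the authors with Agilent Feature Extraction 10.7.3.1, hold processed signal intensity per spot, after subtraction of a fitted background surface and multiplicative detrending (build mm9). The authors also deposited a table of normalized log2 values of the same arrays (25944 entries under probe names, 9 of them of members, which may average the probes of a gene). Its column medians lay between 7.59 and 7.65 and its values followed the scanner log2 signals (r from 0.979 to 0.982), with genes not centred. It was used only as an alternative, its normalization method being not given in the sources used here.

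The log2 intensities of a probe's spots were averaged, leaving out spots flagged as outliers, and each array's 75th percentile was then subtracted. Control spots were left out, no spot was saturated, and 67.8% to 80.6% of spots per array were well above background, which sets the precision for dim probes. The test took 32026 of 39429 probes, those with a share of 0.5 or more of their spots well above background on 4 or more of the 19 arrays. They were tested with limma 3.58.1 (R 4.3.3), 4 groups in 1 fit, following the methods' use of limma. Single probes were also compared by 2-sided exact permutation of group means (Python 3.11.15). The fit was checked on simulated data with these groups. Noise there was independent between arrays and equal in spread over the groups, so slide effects and unequal spreads were not covered. Genes with several probes used the probe with the highest mean signal. Same-numbered NCD arrays shared slides and deviated together (r = 0.237 to 0.447), so a pairing by number cannot be told apart from the slide there. The main fit and the permutation tests held no slide or pair term, so spread between slides stayed in their p-values. Lists were named by their called genes or, if fewer than 4, by the largest changes. The members and lists were chosen with earlier results of these data known. Alternatives covered normalization, background correction, filter, blocks, weights and leaving out each array. Promoters are from RefSeq tables. For Cidea, 1 of the genes that the likeness rule selected is not reported here.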

Additional observations from a re-analysis of the deposited data

Results flagged for a closer look

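In 5 of 52 probe and group combinations tested for an array far from the rest of its group, the gap to the next array, as a share of the group's whole range, exceeded Dixon's critical value, and chance gives about 1 in 20. AR113Q-NCD replicate 2 was the highest of its group for Cidea (4.03 against 1.08 for the next array, share 0.819), Elovl3 (-2.09 against -7.75, share 0.831) and Acot11 (1.45 against 0.68, share 0.726). CTR-NCD replicate 5 was the highest of its group for Elovl3 (-6.42 against -8.24, share 0.841), with no CTR-NCD array well above background. Both Elovl3 shares rest on signals that were not well above background, so they have no exact size. They count among the 5 by the rule alone, and the comparison with chance includes them. CTR-NCD replicate 4 was the lowest of its group for Acot11 (-1.18 against -0.42, share 0.821).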

How the results depend on the processing

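Up to 36 alternative settings were run for each comparison. In AR113Q-NCD against CTR-NCD the number of members called, 1 as reported, was 2 with quantile normalization, the authors' values, a filter of 10 of 19 arrays, slide as a random block, the replicate block, array weights, an intensity trend or only the groups compared. It was 4 with unadjusted p, and 1 to 2 when each array was left out. In AR113Q-HFD against CTR-HFD it was 0 with normexp or only the groups compared, 2 with no fold threshold, 1 with the replicate block and 0 to 2 when each array was left out. In AR113Q-HFD against AR113Q-NCD it was 3 with unadjusted p and otherwise 0. The replicate block gave 0 there, 0 in CTR-HFD against CTR-NCD and 0 for the interaction. Outside NCD only some same-numbered arrays deviated together. Between genotypes on the HFD r ran from -0.206 to 0.434. For the diet it ran from 0.0090 to 0.538 in CTR and from -0.0064 to 0.476 in AR113Q. In CTR-HFD against CTR-NCD and for the interaction no setting gave a call.

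Some differences that were not called changed sign, and the cause was not tested. With normexp the median over all probes was itself -0.55 for the NCD genotype, against -0.05 as reported. For the diet in CTR it was -0.64, against 0.0097 as reported, and for the HFD genotype it was -0.02, against -0.07. The normexp values below include these shifts. In AR113Q-NCD against CTR-NCD, normexp gave -0.47 for Dio2, -0.28 for the dimmer Otop1 probe, -0.87 for Pm20d1, -0.88 for Slc27a2 and 0.17 for Cox8b, which was 0.20 with quantile normalization and 0.18 in the authors' values. In AR113Q-HFD against CTR-HFD, quantile normalization, normexp and the authors' values gave 0.057, 0.0062 and 0.052 for Pm20d1. Slc27a2 was -0.057 with normexp, -0.080 with slide fixed, -0.012 with slide random, -0.0030 with array weights and -0.49 with a floor for dim signals, a setting added after the data were seen. Cox8b was 0.062 with quantile normalization and 0.087 in the authors' values. In CTR-HFD against CTR-NCD, Dio2 was 0.0065 in the authors' values and the dimmer Zic1 probe -0.81 with normexp. In AR113Q-HFD against AR113Q-NCD, the brighter Otop1 probe was 0.00023 with array weights and the dimmer Zic1 probe 0.0069 with quantile normalization.

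When each array was left out, the sign also changed in these ranges. For NCD genotype they were -0.38 to 0.11 (Zic1 brighter) and -0.68 to 0.71 (Slc27a2). For HFD genotype they were -0.51 to 0.13 (Dio2), -0.0011 to 0.84 (Zic1 brighter), -0.30 to 0.19 (Pm20d1) and -0.58 to 0.78 (Slc27a2). For the diet in CTR they were -0.94 to 0.42 (Cidea), -0.46 to 0.18 (Dio2), -0.61 to 0.012 (Otop1 brighter), -0.83 to 0.012 (Zic1 brighter), -0.016 to 0.17 (Zic1 dimmer) and -0.41 to 0.089 (Acot11). For the diet in AR113Q they were -0.34 to 0.17 (Otop1 brighter), -0.043 to 0.40 (Zic1 brighter), -0.19 to 0.065 (Zic1 dimmer) and -1.32 to 0.070 (Slc27a2).

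The median over all probes in the NCD genotype comparison was -0.55 with normexp and -0.05 as reported. Over all probes 930 were called higher and 591 lower in AR113Q-HFD, and 1080 and 460 with median centring, 1141 and 513 with quantile normalization, and 252 and 298 with normexp. On NCD the counts were 736 and 651, and 281 and 221 with normexp. The Otop1 entry of the authors' table, matched to the dimmer probe, differed by 0.020 on NCD, against 0.82 as reported, and may average the probes of the gene. Signals near background, as for Ucp1, Elovl3 and Slc27a2, limit what these arrays can show.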
